A study of Mus musculus with 6 samples.

Results

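A set of 40 genes that mark blood vessel endothelium or carry its signals was compared between the Lgr5-positive and Lgr5-negative cells of one sort gate of the mouse mammary gland. The genes were named one by one and were matched to array probes through the probes' RefSeq transcripts. All 40 of them were found among the 20887 gene symbols on the array, on 48 probes, and 38 passed the filter on dim probes and were tested. They comprise 14 receptors and ligands, 14 junction and surface proteins, 7 transcription factors and 5 secreted or cytoplasmic proteins.

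Cells were taken from the mammary glands of C57/B6 virgin mice of the genotype lgr5-egfp-ires-creert2, in which EGFP and a tamoxifen-inducible Cre are placed at the Lgr5 gene. This allele was shared by both groups, and the labels give no treatment. Sorted cells were Lin-CD24+CD29hi, a gate that holds basal mammary epithelium and is named P4 in the labels, and EGFP alone separated the Lgr5-positive cells (GFP+) from the Lgr5-negative cells (GFP-). EGFP marks cells in which the Lgr5 locus was read at the time of the sort, and cells below the EGFP threshold need not lack Lgr5 RNA. The labels name neither the antibodies behind Lin nor the mice behind each sample, so the p-values measure the spread between these samples, which may be technical. RNA of each fraction was hybridised in Cy5 on 3 arrays against a universal reference RNA of 11 mouse cell lines in Cy3. Each level below is a log2 ratio of sorted cells to that reference, listed in the order of replicates 1, 2 and 3.

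Endothelial cells line blood vessels and are held together by adherens and tight junctions built from VE-cadherin (Cdh5) and claudin 5 (Cldn5). Vascular endothelial growth factors act through the receptors Flt1 and Kdr, angiopoietins through Tek with its partner Tie1, and apelin through Aplnr, and these systems govern sprouting and quiescence. Endothelial identity is kept by ETS, GATA and basic helix-loop-helix transcription factors. In the mammary gland, capillaries run close to the ducts, and endothelial cells have to be removed from suspensions before epithelial cells are sorted.

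Median Cy5 signals were 137 to 169 on the Lgr5-positive arrays and 200 to 278 on the Lgr5-negative ones, over local backgrounds of 64 to 76. The share of probes well above background ranged from 50.9% to 74.4%, and no Cy5 spot was saturated. Lgr5 itself checked the labels, with 4.24, 5.36 and 5.01 in the Lgr5-positive and 2.84, 4.04 and 3.31 in the Lgr5-negative samples. The difference was 1.47 (SE 0.40, adjusted p = 0.245), and with the replicate number as a block it rose (SE 0.13, adjusted p = 0.0021). Arrays with the same replicate number deviated together from their group means across genes (correlations of 0.810, 0.819 and 0.675). Blocked values therefore stand beside those of the group alone.

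Most vessel genes had lower values in the Lgr5-positive cells, with a negative difference in 36 of 38 (48% of all genes tested). In the fit with the group alone 5 of them fell: Egfl7, Plvap, Icam2, Gata2 and Tie1. With the replicate block, 25 of the 38 fell. None rose in either limma fit. At an unadjusted limma p under 0.05, 27 were lower and 0 higher with the group alone, and 28 and 0 with the block. Of all 15680 genes tested, 977 were lower and 308 higher at that level with the group alone, and 1960 and 1387 with the block. After adjustment, 0.587% of all genes tested fell and 0.0255% rose with the group alone, and 5.61% fell and 2.1% rose with the block. The median difference of the 38 genes was -1.92 on the log2 scale, with a range of -3.46 to 0.25, against 0.01 for all genes tested. A difference under -2 was found for 17 of them (1.1% of all genes), and in 26 the 3 Lgr5-positive values lay below the 3 Lgr5-negative values without overlap (8.14% of all genes), while in 0 they lay above (4.06%). In bulk RNA, fewer endothelial cells and less vessel RNA per cell cannot be told apart.

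The count with the group alone depended on single arrays. It was 0 without Lgr5-positive replicate 1 or 3 and 0 without Lgr5-negative replicate 2 or 3, with 25 or 26 genes lower at an unadjusted p under 0.05 in limma, and it was 8 without Lgr5-positive replicate 2 and 15 without Lgr5-negative replicate 1. With the block, the count was 27, 22 and 23 without pair 1, 2 or 3. Emcn, Nos3 and Tal1 lost the blocked call without pair 2, Cldn5 and Esam without pair 3, and Pecam1 and Tek gained it without pair 1. On all 6 arrays, 32 of the 40 genes were well above background. The 6 others that were tested entered through the Lgr5-negative arrays for the most part: Tie1 was above background on 0 of 3 Lgr5-positive arrays, Tek and Adgrl4 on 1, and Tal1, Gata2 and Hhex on 2. A gene that passes a filter mainly through its brighter group has to differ, so these counts describe the set and support no test of it.

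**Figure D1:**
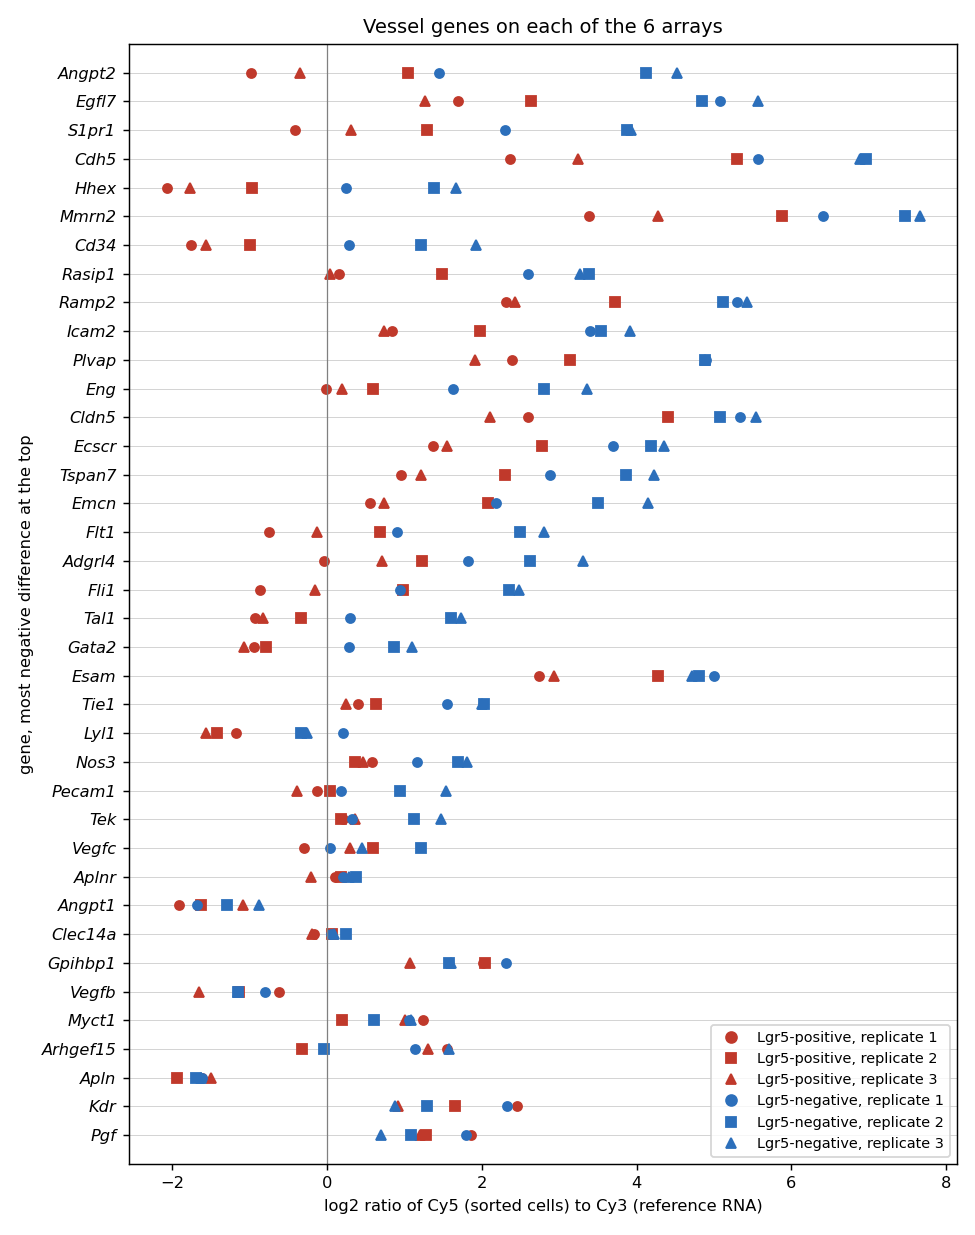
Log2 ratio of sorted cells (Cy5) to reference RNA (Cy3) for each of the 38 genes tested (rows) on each of the 6 arrays; red symbols are Lgr5-positive, blue ones Lgr5-negative, and the shape gives the replicate. From Angpt2 at the top the groups lie apart for most genes, with no overlap in 26 of 38, and toward the bottom they mix.

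Promoter sequences of members that fell with the block were read because these genes moved together and because ETS, GATA and basic helix-loop-helix factors are among the members. The RefSeq table of GRCm38.p6 gave 31 windows of 300 bases, from 250 before to 50 after the start, for 24 of the 40 genes. Only 14 of the 25 genes that fell with the block had a window, so the shares below do not cover the rest. An ETS motif, CCGGAAG or CAGGAAG on either strand, was present in 9 of these windows (29%), in 7 of the 18 windows of genes that fell with the block (38.9%), and in 20.9% of all 32851 windows. A GATA motif, AGATAA or TGATAA, was present in 19.4% of the members' windows, 16.7% of those of genes that fell with the block and 18.6% of all. An E-box, CAGCTG or CATCTG, was present in 32.3%, 44.4% (8 of 18) and 30.6% in the same order. No searched motif lies within another, though neighbouring matches can share end bases. These shares carry no test, and a match shows only that the letters are there. The 6 genes that fell with the block and hold an ETS match are shown by the 200 bases before their start, 5′ to 3′ on the gene's strand, with ETS matches on either strand in capitals. All lie on the plus strand, at Egfl7 chr2:26580883-26581082, Hhex chr19:37434641-37434840, Cd34 chr1:194938621-194938820, Rasip1 chr7:45627337-45627536, Emcn chr3:137340878-137341077 and Lyl1 chr8:84701257-84701456.
Egfl7: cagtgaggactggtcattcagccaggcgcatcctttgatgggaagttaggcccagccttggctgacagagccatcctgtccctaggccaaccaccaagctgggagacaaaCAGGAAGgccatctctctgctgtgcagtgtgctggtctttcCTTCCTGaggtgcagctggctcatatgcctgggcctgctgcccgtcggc
Hhex: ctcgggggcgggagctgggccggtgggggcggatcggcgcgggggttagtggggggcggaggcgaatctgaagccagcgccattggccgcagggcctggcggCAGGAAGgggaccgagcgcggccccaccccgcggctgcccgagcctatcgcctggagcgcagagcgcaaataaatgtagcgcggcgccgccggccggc
Cd34: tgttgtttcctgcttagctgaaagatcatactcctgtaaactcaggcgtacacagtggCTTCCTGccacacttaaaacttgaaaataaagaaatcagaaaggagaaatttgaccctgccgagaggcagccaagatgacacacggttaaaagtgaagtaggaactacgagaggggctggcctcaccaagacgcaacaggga
Rasip1: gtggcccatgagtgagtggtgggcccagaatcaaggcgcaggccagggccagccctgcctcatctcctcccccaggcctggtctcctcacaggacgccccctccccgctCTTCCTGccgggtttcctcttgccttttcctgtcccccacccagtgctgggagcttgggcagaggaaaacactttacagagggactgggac
Emcn: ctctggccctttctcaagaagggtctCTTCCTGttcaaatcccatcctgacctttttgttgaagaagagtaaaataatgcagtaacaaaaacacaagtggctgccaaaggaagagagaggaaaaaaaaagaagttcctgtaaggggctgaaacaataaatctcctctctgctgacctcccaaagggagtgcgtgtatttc
Lyl1: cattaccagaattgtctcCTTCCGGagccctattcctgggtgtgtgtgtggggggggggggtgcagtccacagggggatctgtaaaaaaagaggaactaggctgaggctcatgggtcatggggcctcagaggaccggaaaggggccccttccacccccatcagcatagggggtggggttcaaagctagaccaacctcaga
Egfl7 has 2 windows in the table. The one shown held a pair of matches, the first bases of which lay 90 and 49 bases before its start, and the other, chr2:26583615-26583914, held 1 match 81 bases before its start, so the 7 windows belong to 6 genes. In the other genes the single matches began 98 bases before the start in Hhex, 142 in Cd34, 91 in Rasip1, 174 in Emcn and 182 in Lyl1. Only the Lyl1 match had the letters of CCGGAAG, read on the opposite strand.

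Among the 14 receptors and ligands, 1 fell with the group alone and 6 fell with the block, and the median difference was -0.55. Those that fell were 5 receptors or receptor partners and 1 ligand, Angpt2. Angpt2, the angiopoietin that endothelial cells release and that can antagonise Tek, measured -0.98, 1.04 and -0.35 in the Lgr5-positive and 1.44, 4.12 and 4.53 in the Lgr5-negative samples. No values overlapped, and Lgr5-negative replicate 1 lay well below the other two of its group. The difference was -3.46 (SE 0.88, adjusted p = 0.212, and SE 0.42 and adjusted p = 0.0052 with the block), or 11.0-fold. It was the most negative of the set in the main processing. Egfl7 was lower than Angpt2 under median centring (-3.95 against -3.41) and in the Cy5 channel alone (-3.90 against -3.15). With the scanner's ratios Hhex and Angpt2 were both at -3.70. Its relative Angpt1, which activates Tek and is made by cells around the vessel, differed by -0.26 (SE 0.30, adjusted p = 0.9998; SE 0.12 and adjusted p = 0.267 with the block), and its groups overlapped.

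S1pr1, the receptor for sphingosine-1-phosphate that steadies endothelial junctions, measured -0.42, 1.30 and 0.31 in the Lgr5-positive and 2.30, 3.88 and 3.92 in the Lgr5-negative samples. Every Lgr5-positive value lay below the lowest Lgr5-negative one. The difference was -2.97 (SE 0.58, adjusted p = 0.103; SE 0.21 and adjusted p = 0.0011 with the block), and the pairs gave -2.72, -2.58 and -3.61. Flt1, which binds VEGF with high affinity and limits its action, measured -0.75, 0.68 and -0.13 against 0.91, 2.50 and 2.80. The highest Lgr5-positive value, replicate 2, lay just under the lowest Lgr5-negative value, replicate 1, and the difference was -2.14 (SE 0.57, adjusted p = 0.239; SE 0.25 and adjusted p = 0.0047 with the block).

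Eng, an auxiliary receptor for BMP ligands on endothelium, measured -0.02, 0.59 and 0.20 in the Lgr5-positive and 1.63, 2.80 and 3.36 in the Lgr5-negative samples. The Lgr5-positive values were close together and the Lgr5-negative ones spread. The difference was -2.34 (SE 0.44, adjusted p = 0.094; SE 0.27 and adjusted p = 0.0046 with the block). Ramp2, which makes the calcitonin receptor-like receptor respond to adrenomedullin, measured 2.31, 3.72 and 2.43 against 5.29, 5.12 and 5.43. Here the Lgr5-negative arrays were nearly equal and Lgr5-positive replicate 2 stood above the other two. The difference was -2.46 (SE 0.38, adjusted p = 0.056; SE 0.31 and adjusted p = 0.0061 with the block).

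Tie1, the orphan partner of Tek, stood well above background on 0 of 3 Lgr5-positive and 3 of 3 Lgr5-negative arrays. Of all genes tested, 0.357% were not well above background in the Lgr5-positive samples. Its ratios were 0.40, 0.63 and 0.24 in the Lgr5-positive and 1.55, 2.03 and 2.00 in the Lgr5-negative samples. The difference of -1.43 (SE 0.21, adjusted p = 0.048; SE 0.15 and adjusted p = 0.0034 with the block) is therefore not an exact size, and no fold is given, since the bound from the Cy5 channel exceeded the fold of the ratio. With the scanner's ratios it was -2.16. Tek, the angiopoietin receptor itself, measured 0.21, 0.18 and 0.36 against 0.33, 1.12 and 1.47. Lgr5-negative replicate 1 fell inside the Lgr5-positive range, only 1 Lgr5-positive and 2 Lgr5-negative arrays were well above background, and the difference of -0.72 (SE 0.30, adjusted p = 0.59; SE 0.20 and adjusted p = 0.089 with the block) passed neither fit.

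The VEGF ligands and the apelin system did not pass. Vegfb was at -0.11 (SE 0.29, blocked adjusted p = 0.761), Vegfc, which acts on lymphatic vessels, at -0.37 (SE 0.36, blocked adjusted p = 0.175) and Pgf, a ligand of Flt1, at 0.25 (SE 0.33, blocked adjusted p = 0.341). Aplnr, the apelin receptor, was lower in all 3 pairs by small amounts, at -0.11, -0.19 and -0.49, and its groups did not overlap, but its difference of -0.26 had a blocked adjusted p of 0.307. Apln, its ligand, which tip cells of sprouts make, was at -0.04 (SE 0.18). Under median centring of each array, which moved the median of all genes to -0.29, Pgf turned to -0.09.

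Kdr, the main signalling receptor for VEGF, was read by 2 probes of the same RefSeq transcript that gave different results. The brighter probe stood at 2.46, 1.66 and 0.92 in the Lgr5-positive and 2.33, 1.29 and 0.87 in the Lgr5-negative samples. The order of replicates was the same in both groups, and the groups overlapped, with a difference of 0.18 (SE 0.50, adjusted p = 0.9998; SE 0.12 and adjusted p = 0.475 with the block), and turned to -0.27 under median centring. The dimmer probe stood at 0.70, 2.14 and 1.01 in the Lgr5-positive and 2.91, 4.57 and 4.35 in the Lgr5-negative samples. None of its values overlapped between groups, and it fell with the block in a fit over 34528 probes (-2.66, SE 0.54, adjusted p = 0.222; SE 0.21 and adjusted p = 0.001 with the block). Its mean Cy5 signal was 289 on the Lgr5-positive and 3133 on the Lgr5-negative arrays over a background near 72.2, so it was above background in both groups. The brighter probe had 3152 and 4541. Which of them reports Kdr RNA was not tested. With the probes averaged, Kdr was at -1.24 and fell with the block.

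Another 5 tested genes had 2 probes past the filter, and in that fit 3.18% of all probes fell and 1.23% rose with the block, against 0.0956% and 0.00579% with the group alone. The dimmer probe of Plvap gave -1.02 against -2.41 on the brighter one and fell with the block on both (adjusted p = 0.023 for the dimmer). For Cd34 the dimmer probe, with a mean Cy5 signal of 134 and 279 in the Lgr5-positive and Lgr5-negative samples, gave -0.46 (blocked adjusted p = 0.205) against -2.58 on the brighter one, and their mean gave -1.52. The Nos3 probes had the same sign, with -0.67 on the dimmer (blocked adjusted p = 0.041) and -1.09 on the brighter. Myct1 was at -0.81 on the dimmer probe (blocked adjusted p = 0.042) and at -0.10 on the brighter, which did not pass. Both Clec14a probes lay near 0, at 0.03 and -0.22. The dimmer probe gave the smaller size of difference for Plvap, Cd34, Nos3 and Clec14a and the larger for Kdr and Myct1.

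**Figure D2:**
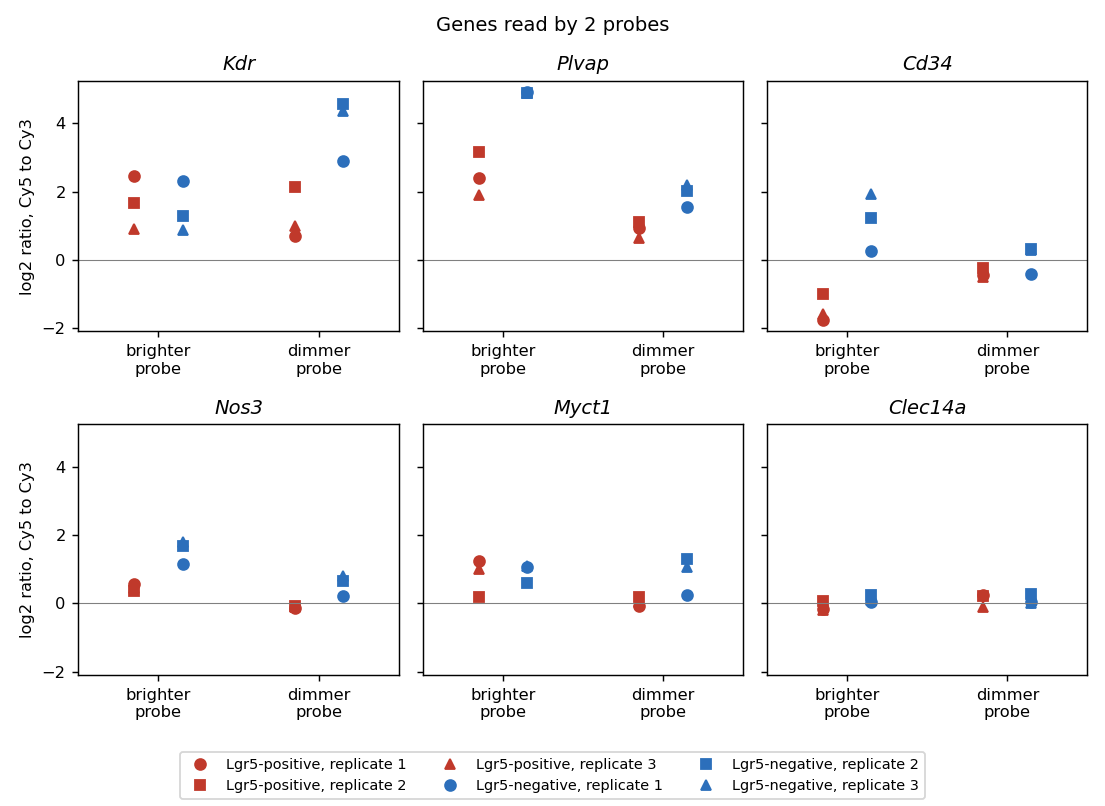
Log2 ratio of Cy5 to Cy3 on each of the 6 arrays for the brighter and dimmer probe of the 6 genes with 2 probes past the filter; colour gives the fraction and shape the replicate. The dimmer Kdr probe separates the groups (difference -2.66) while on the brighter one they overlap (0.18).

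Of the 14 junction and surface proteins, 2 fell with the group alone, Plvap and Icam2, and 10 fell with the block. All 14 had a negative difference on the probe that stands for the gene, with a median of -2.16. Plvap, which forms the diaphragms of endothelial pores and caveolae, measured 2.39, 3.15 and 1.91 in the Lgr5-positive and 4.90, 4.89 and 4.88 in the Lgr5-negative samples. Its Lgr5-negative values were almost identical, and all Lgr5-positive values lay well below them. The difference was -2.41 (SE 0.31, adjusted p = 0.035; SE 0.23 and adjusted p = 0.0024 with the block), or 5.30-fold. Icam2, an adhesion molecule for leukocyte integrins on resting endothelium, measured 0.84, 1.98 and 0.73 against 3.40, 3.54 and 3.91, and differed by -2.43 (SE 0.36, adjusted p = 0.048; SE 0.28 and adjusted p = 0.0046 with the block). In Icam2, Lgr5-positive replicate 2 was the highest of its group and still below every Lgr5-negative value.

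The junction genes Cdh5, Cldn5 and Esam fell with the block. Cdh5 measured 2.36, 5.30 and 3.24 in the Lgr5-positive and 5.57, 6.97 and 6.89 in the Lgr5-negative samples. Lgr5-positive replicate 2 lay just under Lgr5-negative replicate 1, without overlap, and the difference was -2.84 (SE 0.76, adjusted p = 0.243; SE 0.35 and adjusted p = 0.0052 with the block). Cldn5, the claudin of endothelial tight junctions, measured 2.59, 4.41 and 2.10 against 5.34, 5.08 and 5.55. Its pair differences were -2.74, -0.67 and -3.44, so the pair of replicate 2 was much smaller, and the difference was -2.29 (SE 0.56, adjusted p = 0.197; SE 0.47 and adjusted p = 0.034 with the block). Esam, an immunoglobulin-like protein of the same junctions, measured 2.74, 4.28 and 2.93 against 5.01, 4.80 and 4.72, with pair differences of -2.26, -0.53 and -1.79. Its difference of -1.53 (SE 0.40, adjusted p = 0.233; SE 0.30 and adjusted p = 0.031 with the block) moved to -0.56 with the scanner's own ratios and to -2.50 in the Cy5 channel alone.

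Cd34, a sialomucin of capillary endothelium, measured -1.76, -0.99 and -1.57 in the Lgr5-positive and 0.28, 1.22 and 1.92 in the Lgr5-negative samples on its brighter probe. All Lgr5-positive values were below the reference RNA and all Lgr5-negative values above it, with a difference of -2.58 (SE 0.43, adjusted p = 0.067; SE 0.27 and adjusted p = 0.0037 with the block). Emcn, a mucin of venous and capillary endothelium, measured 0.55, 2.08 and 0.74 against 2.18, 3.50 and 4.14. Its highest Lgr5-positive and lowest Lgr5-negative values were nearly equal, and the difference was -2.15 (SE 0.59, adjusted p = 0.259; SE 0.36 and adjusted p = 0.017 with the block). Ecscr, a surface protein that modulates chemotaxis of endothelial cells, measured 1.36, 2.78 and 1.55 against 3.70, 4.19 and 4.35, with a difference of -2.18 (SE 0.40, adjusted p = 0.085; SE 0.25 and adjusted p = 0.0046 with the block).

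Tspan7, a tetraspanin, differed by -2.17 (SE 0.46, adjusted p = 0.134; SE 0.26 and adjusted p = 0.0052 with the block), with 0.96, 2.30 and 1.21 against 2.88, 3.87 and 4.23 and no overlap. Adgrl4, an adhesion receptor of endothelium, was well above background on 1 Lgr5-positive array and on all 3 Lgr5-negative ones. It measured -0.04, 1.22 and 0.71 against 1.82, 2.62 and 3.31 and differed by -1.95 (SE 0.46, adjusted p = 0.174; SE 0.22 and adjusted p = 0.0046 with the block), which was -3.31 with the scanner's ratios. The blocked call was lost for Adgrl4, Cldn5, Emcn, Esam and Tie1 in the deposited table and in the scanner's ratios, and for Cdh5 in the latter. Cldn5 also lost it with array weights.

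Pecam1, also called CD31 and a common antigen for removing endothelial cells by antibody, was not among the genes that passed. It measured -0.13, 0.03 and -0.39 in the Lgr5-positive and 0.17, 0.94 and 1.53 in the Lgr5-negative samples. The groups did not overlap, but the pairs ranged widely, at -0.30, -0.91 and -1.92, and the difference was -1.04 (SE 0.35, adjusted p = 0.397; SE 0.28 and adjusted p = 0.079 with the block). Clec14a, a lectin-like receptor of tumour vessels, at -0.22, Gpihbp1, which carries lipoprotein lipase to the capillary lumen, at -0.12, and Myct1 at -0.10 completed the group, with overlapping values and blocked adjusted p of 0.327, 0.789 and 0.757.

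**Figure D3:**
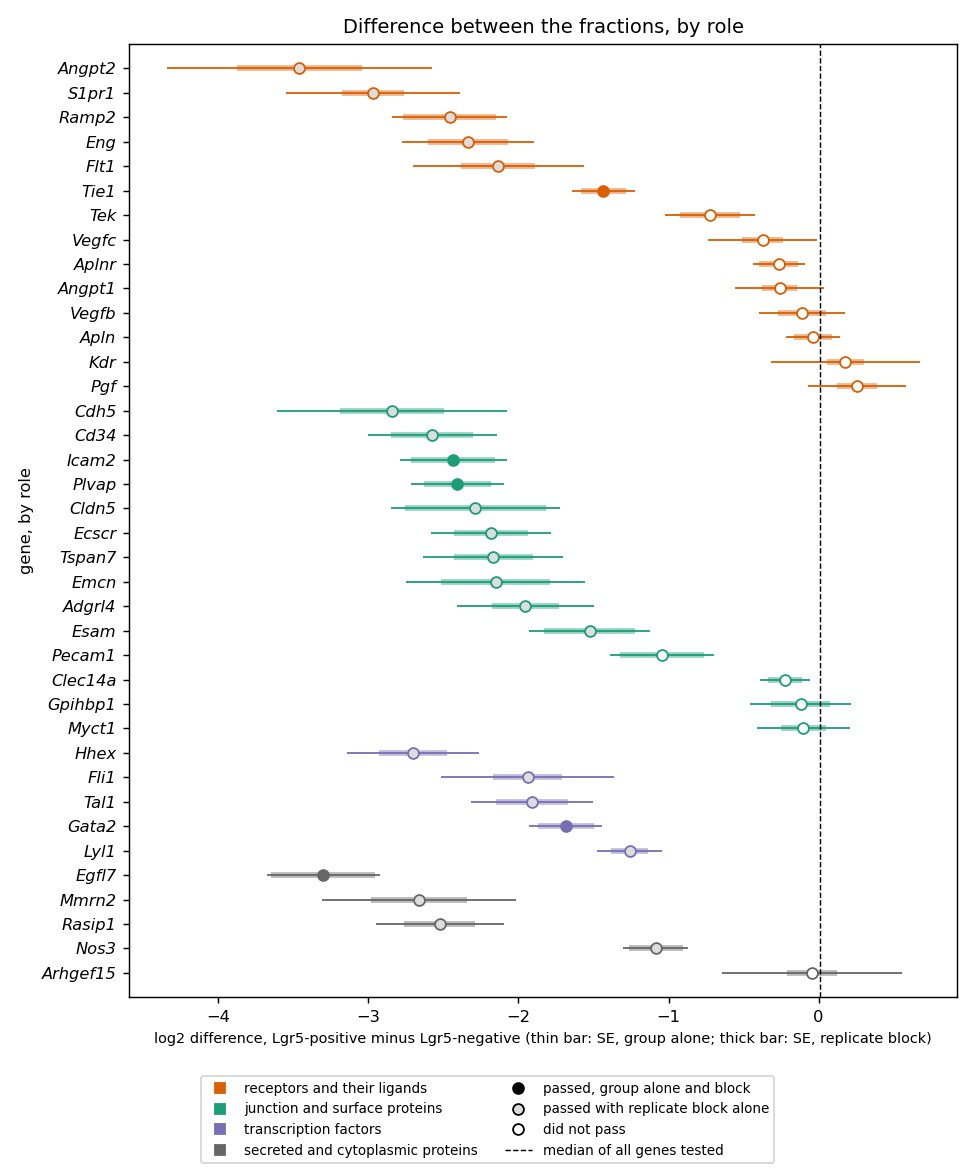
Log2 difference, Lgr5-positive minus Lgr5-negative, for the 38 genes tested, grouped by role in colour; thin bars are the SE of the fit with the group alone, thick bars that with the replicate block, and the dashed line is the median of all genes tested (0.01). Filled points, 5 in all, passed both fits, grey points passed with the block alone, and open points passed neither.

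Of the 7 transcription factors, 5 were tested, 1 fell with the group alone and all 5 tested fell with the block, with a median of -1.91. Gata2, a zinc finger factor of endothelial and blood progenitors, measured -0.95, -0.79 and -1.08 in the Lgr5-positive and 0.28, 0.87 and 1.10 in the Lgr5-negative samples. The Lgr5-positive values were tightly grouped and below the reference, the Lgr5-negative values above it, and the difference was -1.69 (SE 0.25, adjusted p = 0.048; SE 0.19 and adjusted p = 0.0042 with the block), or 3.22-fold. With the scanner's ratios it was -2.76. Tal1, a basic helix-loop-helix factor that drives the earliest blood and vessel cells, measured -0.93, -0.33 and -0.83 against 0.30, 1.61 and 1.73, with a difference of -1.91 (SE 0.41, adjusted p = 0.132; SE 0.24 and adjusted p = 0.0057 with the block). Its close relative Lyl1 had the smallest difference of the 5, -1.26 (SE 0.22, adjusted p = 0.071; SE 0.12 and adjusted p = 0.0026 with the block), and the values -1.17, -1.42 and -1.57 against 0.21, -0.33 and -0.26 did not overlap.

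Hhex, a homeobox factor of early endothelium, measured -2.07, -0.97 and -1.77 in the Lgr5-positive and 0.25, 1.38 and 1.67 in the Lgr5-negative samples. It was the transcription factor with the most negative difference, -2.70 (SE 0.44, adjusted p = 0.064; SE 0.23 and adjusted p = 0.002 with the block), or 6.51-fold. It was well above background on 2 of 3 Lgr5-positive arrays, and with the scanner's ratios the difference was -3.70, as that of Tal1, also above background on 2, was -2.72. Fli1, an ETS factor that maintains endothelial identity, measured -0.86, 0.98 and -0.16 against 0.95, 2.35 and 2.48. Lgr5-positive replicate 2 lay above Lgr5-negative replicate 1, so the groups overlapped, while all 3 pairs were lower, at -1.81, -1.37 and -2.63. The difference was -1.94 (SE 0.58, adjusted p = 0.314; SE 0.23 and adjusted p = 0.0051 with the block). Erg, a close ETS relative of Fli1, was above background on 1 array with 1 probe and on none with the other, and Etv2, an ETS factor of the embryo, on none with either probe. Their unfiltered differences were -0.61 and 0.12 for the Erg probes and -0.05 and -0.03 for the Etv2 probes. Without the filter on dim probes Erg fell with the block.

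Of the 5 secreted and cytoplasmic proteins, 1 fell with the group alone and 4 fell with the block, with a median of -2.52. Egfl7, a matrix protein that endothelial cells secrete, measured 1.70, 2.63 and 1.26 in the Lgr5-positive and 5.08, 4.85 and 5.56 in the Lgr5-negative samples. Every Lgr5-negative value was far above every Lgr5-positive one, and the difference was -3.30 (SE 0.38, adjusted p = 0.029; SE 0.35 and adjusted p = 0.0035 with the block), or 9.85-fold. Mmrn2, a matrix ligand of Clec14a, measured 3.39, 5.88 and 4.28 against 6.40, 7.47 and 7.66, both well above the reference, and differed by -2.66 (SE 0.65, adjusted p = 0.189; SE 0.32 and adjusted p = 0.0051 with the block). Rasip1, which is needed for vessel lumen formation, measured 0.15, 1.48 and 0.04 against 2.60, 3.38 and 3.26 and differed by -2.52 (SE 0.43, adjusted p = 0.071; SE 0.24 and adjusted p = 0.0025 with the block).

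Nos3, the endothelial nitric oxide synthase, had the smallest size of difference among the 25 genes that fell with the block. It measured 0.58, 0.36 and 0.47 in the Lgr5-positive and 1.16, 1.70 and 1.81 in the Lgr5-negative samples, without overlap, and differed by -1.09 (SE 0.22, adjusted p = 0.113; SE 0.18 and adjusted p = 0.016 with the block). Arhgef15, a guanine nucleotide exchange factor of endothelium, was at -0.04 (SE 0.60, blocked adjusted p = 0.917), with signs that differed between the pairs.

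The genes that fell with the block shared an order of arrays within each group, which is a description, since the same arrays chose them. Lgr5-positive replicate 2 was the highest of the Lgr5-positive arrays for 23 of the 25, against 33.6% of all genes tested, and Lgr5-negative replicate 1 the lowest of its group for 19 of 25, against 42.3%. The size of the difference was smallest in the pair of replicate 2 for 16 of 25, against 5609 of all 15680 genes, and largest in that of replicate 3 for 23 of 25, against 7069 of 15680. Pair medians of the 25 genes were -2.26, -1.59 and -3.02, and those of the other 13 were -0.11, -0.24 and -0.26. Over all 38, 31 were lower in all 3 pairs (21.8% of all genes tested). The mean level of the set was 0.45, 1.14 and 0.47 in the Lgr5-positive and 1.86, 2.33 and 2.55 in the Lgr5-negative samples. All arrays lay on 1 slide, and in each pair the Lgr5-positive array occupied the position left of its Lgr5-negative partner. Within pairs, position and fraction cannot be told apart.

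**Figure D4:**
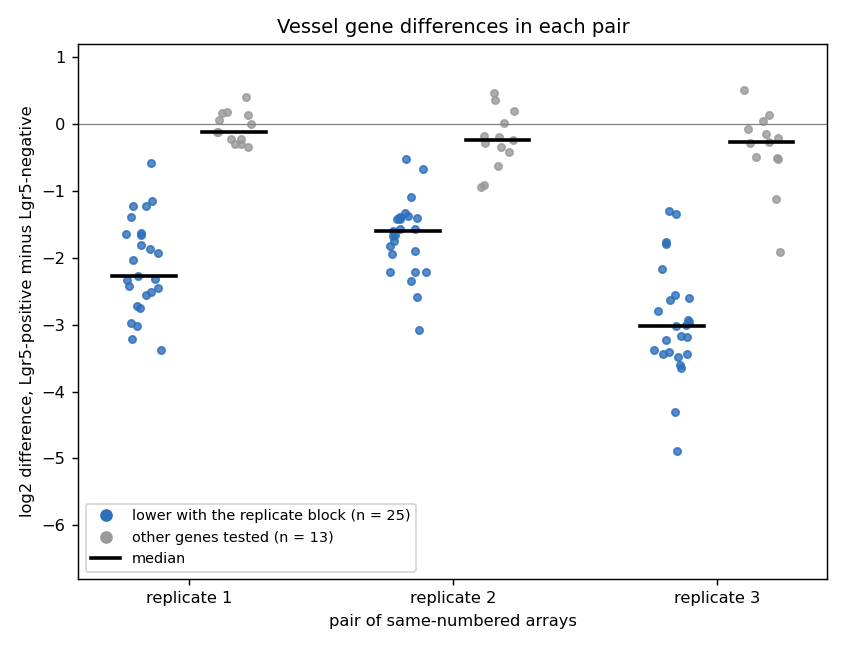
Log2 difference, Lgr5-positive minus Lgr5-negative, in each pair of same-numbered arrays, with 1 point per gene for the 25 genes lower with the replicate block (blue) and the other 13 tested (grey) and black lines at the medians. The blue medians are -2.26, -1.59 and -3.02, and the grey ones stay between -0.26 and -0.11.

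Other genes of the same pathways, a list of 50 written with earlier results known, moved the same way in part. Of 48 tested, 3 fell with the group alone (0.587% of all genes tested) and none rose in limma (0.0255%). The 3 were Jam3, Sox18 and Klf2, the last named after its value was seen. Of the alternatives on all arrays, Jam3 kept this call in 10 of 11 and Sox18 in 3 of 10. Sox18 was well above background on 2 of 3 Lgr5-positive arrays. With the group alone, 26 of the 48 were lower and 1 higher at an unadjusted limma p under 0.05. With the block 26 fell and 1 rose (5.61% and 2.1% of all genes tested). The median was -0.78, and 42 had a negative difference (48% of all genes tested). Jam3, a junctional adhesion molecule, measured -1.42, -0.77 and -0.99 in the Lgr5-positive and 2.15, 2.82 and 3.51 in the Lgr5-negative samples, with a difference of -3.89 (SE 0.36, adjusted p = 0.015; SE 0.20 and adjusted p = 0.00063 with the block). The SoxF factors Sox7 and Sox18, which act in endothelium, fell with the block, at -2.07 (adjusted p = 0.001) and -1.83 (adjusted p = 0.0016). So did the anticoagulant surface proteins Thbd at -2.53 and Procr at -2.43, Edn1, which encodes endothelin, at -2.00, the sphingosine-1-phosphate exporter Spns2 at -2.00 and the protocadherin Pcdh12 at -2.45, with blocked adjusted p between 0.0016 and 0.0025. Smad6, an inhibitor of BMP signalling, was the gene that rose with the block (0.73, adjusted p = 0.015), and is named here after its value was seen. Vegfa, the principal ligand of Kdr, was at 0.33 (blocked adjusted p = 0.159).

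Markers of other cells that the gate could hold were read on the same arrays. Of all genes tested, 0.587% fell with the group alone, and 5.61% fell and 2.1% rose with the block. The list of high endothelial venules, the vessels through which lymphocytes enter lymphoid tissue, fell in 5 of 6 genes with the group alone and in 6 of 6 with the block (median -3.66). Its mean level was 1.14 to 1.68 in the Lgr5-positive and 4.25 to 5.11 in the Lgr5-negative samples, with Fut7 at -4.75, Madcam1 at -3.19 and Chst4 at -3.50. Chst4 was well above background on 1 of 3 Lgr5-positive and 3 of 3 Lgr5-negative arrays, so its size is not exact. The gene of this list that passed with the block alone was Glycam1, named here after its value was seen. Its difference was -0.91 (limma adjusted p = 0.206, and 0.037 with the block). Its means, 6.54 in the Lgr5-positive and 7.46 in the Lgr5-negative samples, lie above those of the list and raise them. Which cells its RNA came from was not tested. Of the lymphatic endothelial list, 4 of 7 genes were tested and 2 fell in both fits, Lyve1 at -4.12 and Mmrn1. The Cy5 signal of Mmrn1 stayed near background in all 3 Lgr5-positive samples. Of the alternatives on all arrays, the group-alone call held in 5 of 11 for Lyve1 and in 5 of 10 for Mmrn1. Pdpn rose with the block (0.61), a call kept in 7 of 11 alternatives, Flt4 was at -0.17, and Prox1, the factor that defines lymphatic endothelium, did not pass the brightness filter. The mean of that list was 0.14 to 0.87 in the Lgr5-positive and 1.53 to 2.32 in the Lgr5-negative samples.

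With the block, 5.61% of all genes tested fell and 2.1% rose. Pericyte markers fell in 4 of 8 tested genes with the block, with a list median of -0.72. Des at -0.97, Notch3 at -0.89 and Ndufa4l2 at -0.86 were among those that fell. The list means were -0.19 to 0.26 in the Lgr5-positive and 0.41 to 0.84 in the Lgr5-negative samples. Des was well above background on 1 of 3 Lgr5-positive arrays and was at -2.22 with the scanner's ratios. Fibroblast markers fell in 4 and rose in 1 of 7, with Dcn at -1.37, Lum at -0.84 and Fbln1 at 0.99, and means of -0.78 to -0.53 and -0.45 to -0.03. Platelet and megakaryocyte markers fell in 2 of 5 (Itga2b -0.74 and Treml1 -0.90; Pf4 at -1.25 did not pass), with means of -0.77 to -0.46 and -0.25 to 0.11. Itga2b was likewise well above background on 1 of 3 Lgr5-positive arrays and was at -1.35 with the scanner's ratios. Luminal epithelial markers fell in 3 of 8, Esr1 at -1.26, Cd14 at -1.28 and Kit at -1.60, with means of 0.39 to 0.82 and 0.79 to 1.64. Values of Kit overlapped between the groups. A negative difference was found in 6 of the 8, and in 48% of all genes tested. Krt8 was at 0.08 and Krt18 at 0.03, both named here after their values were seen. Of 11 alternatives on all arrays, the blocked call held in 9 for Notch3, Lum and Cd14 and in 8 for Treml1 and Fbln1, and for Ndufa4l2 in 8 of 10. The part of these lists in the vessel result was not tested.

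Leukocyte markers gave no call between the fractions. Of 10 listed, 9 were tested, 0 passed in either limma fit and 0 at an unadjusted p under 0.05, and the median was -0.02. Their means were -0.51 to 0.03 in the Lgr5-positive and -0.83 to -0.05 in the Lgr5-negative samples and overlapped, with Itgam at 0.26 and Cd3e at 0.23. Mast cell markers (3 of 6 tested) and erythroid markers (3 of 7) gave 0 calls, with 1 mast cell gene higher with the block and 1 erythroid gene lower in both fits at an unadjusted p under 0.05. The adipocyte list (4 of 5 tested) also gave 0 calls and had 1 gene higher with the block at that level. The members with the lowest blocked p there were Tpsb2 at 0.65, Mcpt4 at -0.18, Cpa3 at -0.07, Epor at -0.61, Hba-a2 at 0.20, its near-identical copy Hba-a1 at 0.09, Cfd at 1.58, Retn at 0.16 and Lep at 0.03. Basal epithelial markers were high in both fractions, at 3.87 to 4.24 in the Lgr5-positive and 3.63 to 3.82 in the Lgr5-negative samples. None fell, and 3 of 8 rose with the block, against 2.1% of all genes tested. They were Oxtr at 0.76, Cnn1 at 0.62 and Krt17 at 0.62, which under median centring were at 0.29, 0.22 and 0.20. These blocked calls were lost in part of the 11 alternatives on all arrays: Oxtr kept its call in 7, Cnn1 in 6 and Krt17 in 5.

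**Figure D5:**
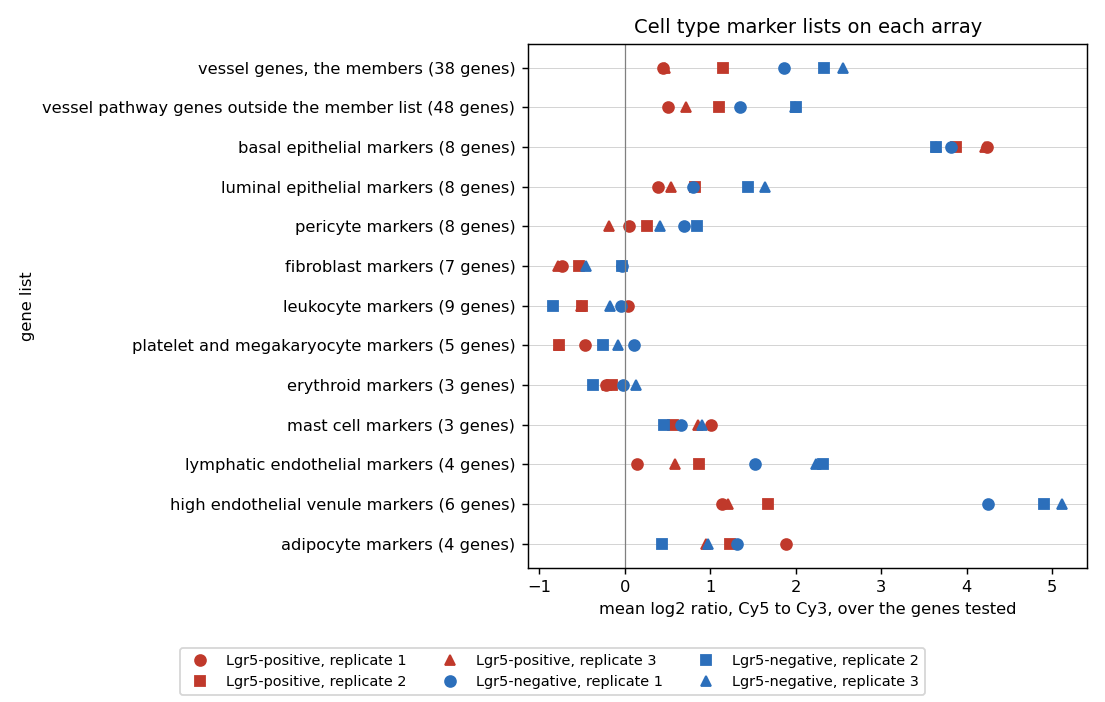
Mean log2 ratio of Cy5 to Cy3 over the tested genes of each list (rows, with the number of genes) on each of the 6 arrays; colour gives the fraction and shape the replicate. Vessel genes and the vessel pathway, high endothelial venule, lymphatic, pericyte, fibroblast and platelet lists lie apart by fraction, lower in Lgr5-positive samples. The leukocyte list overlaps (-0.51 to 0.03 against -0.83 to -0.05). Basal markers are high in both and also lie apart, higher in Lgr5-positive samples.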

How the data were processed

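RNA from 3 Lgr5-positive and 3 Lgr5-negative samples was measured on 6 Agilent 2-colour arrays on 1 slide, with no dye swap. The authors deposited, per the file headers, the median intensity of each spot and of its background, processed intensity and a log10 ratio of Cy5 over Cy3, made with Agilent Feature Extraction 11.0.1.1 (11.0 per the submitters' processing notes). A deposited table of the series holds log2 values with 100% of probe medians at 0; 81.2% to 82.9% of them match the probe-centred scanner ratio to within 0.001 (correlation 0.920 to 0.950), with column medians of -0.05 to 0.03. What made the rest differ is not known.

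Median signals were corrected with normexp (offset 50) and loess within each array in limma 3.58.1 (R 4.3.3), with control and outlier spots at weight 0. The design allowed for medians where means are not in the files used here. Of 55681 probes, 27509 received 1 gene symbol through RefSeq transcripts (GRCm38.p6, for names only; the arrays are annotated on mm9). Probes with Cy5 well above background on at least 3 of 6 arrays were kept (34552), and each gene was read by its brightest probe. Leaving out 10 genes with an outlier spot gave 15680 tested genes. Groups were compared by lmFit and eBayes on log2 ratios in two-sided tests, adjusted by Benjamini-Hochberg over all genes tested and called under 0.05. Fits used the group alone, or the replicate number as a block too. Differences are positive minus negative. Each pair's correlation of deviations exceeded 0.1 and those between different numbers were -0.67 to -0.16, so by this criterion from the data the numbers pair the arrays. Scripts were checked on simulated data. Alternatives were background correction, scaling, filter, probe choice, array weights, prior and leaving out arrays; the number of arrays limits the precision.

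Every member past a test, with disagreeing probes or without signal in a group is named, and up to 8 pathway genes and 3 markers per list with the lowest blocked p; 1 marker is not reported here. Members and lists were chosen with earlier results of these data known.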

Additional observations from a re-analysis of the deposited data

How the results depend on the processing

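The median difference of the tested vessel genes, -1.92, lay between -2.31 and -1.62 under all 18 alternatives, and 0 vessel genes were higher past the limma test under these 18 with the group alone or under the 15 run with the block (at an unadjusted p under 0.05, 0 as well, except 1 with the block in the Cy5 channel alone). The count of 5 lower genes with the group alone was 3 without background subtraction, 0 under median centring (28 genes lower at an unadjusted p under 0.05 in limma), and 2 with the scanner's ratios, the deposited table, no filter on dim probes, all 6 arrays above background, or a trend and robust prior. It was 13 with array weights and 0 to 15 leaving out 1 array. The replicate block gave 25, and without the block the count is 5. The blocked count was 19 with the scanner's ratios, 20 with the deposited table and 34 under median centring, which put the median over all genes at -0.29, with 5662 lower and 128 higher calls against 880 and 330. The cause of these moves was not tested, except that 5 of the 25 were not tested with all 6 arrays above background. Among 11 alternatives on all arrays, Egfl7 kept its group-alone call in 10, Plvap in 7 and Icam2 in 4, and among 10, Gata2 in 7 and Tie1 in 3. A block by slide was not run because all arrays share 1 slide. Little signal over background limits Tie1, Tek, Adgrl4, Hhex, Tal1, Gata2, Erg and Etv2. It also limits the markers Mmrn1, Chst4, Flt4, Des, Itga2b, Ndufa4l2, Lep and Cpa3 and the pathway genes Sox18 and Pcdh12.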
